A study of Danio rerio with 14 samples.

Results

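Zebrafish H2A.Z peaks on unplaced sequences, the pieces of the genome assembly that have been given no place on a chromosome, are described here. Their members are every row of the 2 deposited peak tables whose sequence name starts with chrUn, a rule that uses no level or change of a peak. The 5-AzaC table held 471 such peaks of 29854 in all (1.58%), on 301 sequences. The TDCIPP table held 437 of 28988 (1.51%), on 282 sequences. Of 320 unplaced sequences with a peak in either table, 263 had one in both.

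The peaks come from CUT&Tag, in which a transposase tethered through a polyclonal H2A.Z antibody tags the DNA around it for sequencing. Per the labels, the libraries were made from about 10000 cells of embryos at 6 hours after fertilization, all of them wild type from AB/Tuebingen adults. The groups were 3 samples given 5-AzaC at 100 µM, beginning at the 1-cell stage, 2 samples given TDCIPP at 3.12 µM, beginning at 0.75 hours, and 3 control samples kept in 0.1% DMSO. 5-azacytidine, or 5-AzaC, is built into nucleic acid in place of cytidine and depletes DNA methylation. TDCIPP is used as a flame retardant and belongs to the organophosphates. The labels do not say whether the treated wells also held DMSO, nor whether samples of a group came from separate clutches, so deposited p-values measure the spread between these samples. Another 6 of the 14 samples, from embryos overexpressing H2A.Z, were not analysed here. Each library pools the cell types of the embryo, so fewer cells with H2A.Z at a site and less H2A.Z in each cell cannot be told apart.

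H2A.Z replaces histone H2A in some nucleosomes, often those beside the start sites of genes and at other regulatory DNA. In zebrafish embryos it is known for occupying DNA that lacks methylation, before and during the activation of the embryo's own genome. Sequences that resist placement in an assembly are often rich in repeats or duplicated elsewhere, so a short read from them may match several places. The study's title links H2A.Z to repeats that have lost their repression and compete for it, and the comparisons address where H2A.Z lies in treated embryos.

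Levels are the authors' group values on the log2 scale, read as the log2 of the mean normalised read count of a peak, and a change is the treated level minus the DMSO level on that scale. The tables give no value for a single sample, so no peak has an SD or n. A peak was called at a deposited FDR under 0.05. The authors' deposited tables list an FDR of 1 for 152 and 154 of the unplaced peaks (5-AzaC and TDCIPP), which lay outside the authors' adjustment and could not be called. In both tables, 0 unplaced and 0 assembled peaks with a DMSO level under 3 were called lower, so calls among them were all of higher signal. Genome sequence of the unplaced pieces and gene annotation on them were not used here, so no sequence, gene or marker of a cell type is given.

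In DMSO embryos, unplaced peaks were about as strong and as wide as those on the 25 assembled chromosomes at the median, but spread further at the top. Their median DMSO level in the 5-AzaC table was 3.76, against 3.69 on assembled chromosomes, and median widths were 804 and 788 bp. One in 10 unplaced peaks had a DMSO level over 5.79, where the same point on assembled chromosomes was 5.25. At a DMSO level of 6 or more lay 39 unplaced peaks (8.28%), against 659 assembled ones (2.66%). The TDCIPP table gave 40 (9.15%) and 639 (2.67%). Per kilobase of peak, the median DMSO level on the linear scale was 17.0 normalised reads on unplaced and 16.5 on assembled sequences. Wider peaks were stronger in both classes, with a Spearman rho across peaks between DMSO level and width of 0.593 and 0.641. Peaks are not independent of each other, and the rho is a description only.

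The strongest peak of the class lay on chrUn_KN150271v1 from 250 to 2167, with levels of 10.72 after 5-AzaC and 10.24 in DMSO in the authors' deposited table. It ranked 3rd of all 29854 peaks by DMSO level. The next, on chrUn_KN150160v1 from 5387 to 8113, ranked 7th, with 9.73 after 5-AzaC and 9.33 in DMSO in the authors' deposited table. These 2 peaks alone carried 0.711% of the 5-AzaC signal and 0.341% of the DMSO signal summed over all peaks of the table. In the TDCIPP table their levels were 10.20 and 9.58 after TDCIPP, against 10.24 and 9.33 in DMSO. The remaining 3 of the 5 strongest were on chrUn_KN150127v1 (DMSO level 8.20 in the 5-AzaC table), chrUn_KN149693v1 (7.82) and chrUn_KZ116059v1 (7.76).

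**Figure D1:**
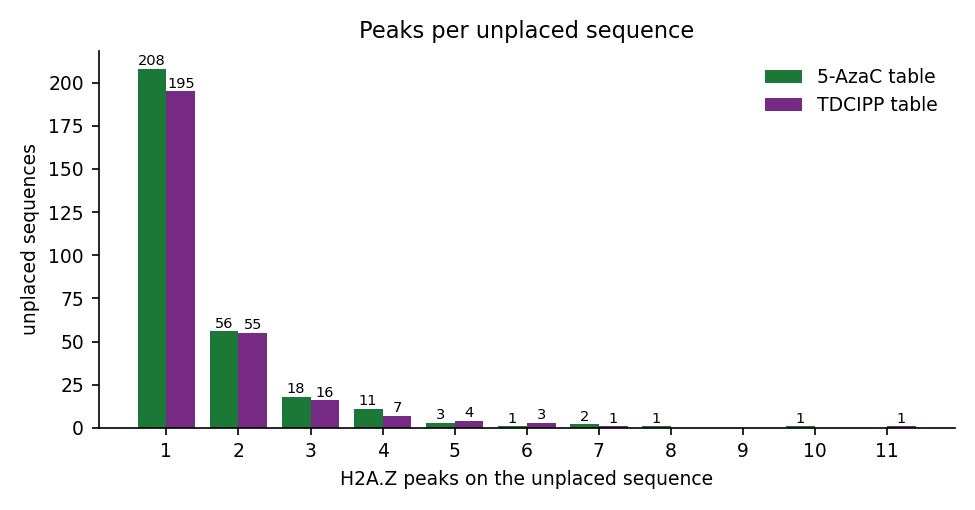
Number of unplaced sequences (vertical axis) by the number of H2A.Z peaks they held (horizontal axis), for the 5-AzaC table (green, left bars) and the TDCIPP table (purple, right bars). Most sequences held 1 peak, 208 and 195 of them, and a single sequence held 10 in one table and 11 in the other.

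After 5-AzaC, H2A.Z signal relative to DMSO was lower at most peaks of every class, and the median decrease was smaller on unplaced sequences than on assembled chromosomes. The median log2 change was -0.53 on unplaced sequences (quartiles -0.90 and 0.13), against -0.68 on assembled ones (-1.01 and -0.30) and -0.70 over the whole table. On alternate-locus sequences, which are second versions of assembled regions, it was -0.79. The change was above 0 at 133 of 471 unplaced peaks (28.2%) and at 14.2% of assembled peaks. Relative to the median of the table, the median unplaced change lay at 0.17, and 282 unplaced peaks (59.9%) were above that median. The linear signal summed over the 442 kb of unplaced peaks after 5-AzaC was 0.95 of that in DMSO, with means of 26.7 and 28.1 normalised reads per peak. For assembled peaks the ratio was 0.659, with means of 12.3 and 18.6. Without the 2 strongest peaks the unplaced ratio was 0.882, and without chrUn_KN149693v1 and chrUn_KN149692v1 it was 0.867. Assembled peaks were not trimmed in the same way, and the ratios were not weighted to like peak strength.

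After TDCIPP the difference from assembled chromosomes was larger in value. The median log2 change was -0.14 on unplaced sequences (quartiles -0.73 and 0.48), -0.56 on assembled ones (-1.02 and 0.05), -0.38 on alternate-locus sequences and -0.53 over the table. The change was above 0 at 185 of 437 unplaced peaks (42.3%) and at 26.5% of assembled peaks. Relative to the median of the table the unplaced median lay at 0.39, with 286 peaks (65.4%) above. Summed over 407 kb, the signal after TDCIPP was 0.93 of that in DMSO, with means of 27.4 and 29.5 normalised reads per peak. The assembled ratio was 0.763, with means of 14.4 and 18.9, and these ratios were not weighted to like peak strength either. The stretch of assembled chromosome 4 from 25 Mb on, which is known to be rich in repeats, had higher medians than the unplaced sequences in both tables, at -0.42 over 665 peaks after 5-AzaC and 0.165 over 626 peaks after TDCIPP. Its peaks were weaker, with median DMSO levels of 2.90 and 3.0.

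Since change varies with peak strength and strength with width, assembled peaks were weighted to the unplaced peaks' distribution over bins of DMSO level and width. The median change at like level and width was -0.535 on unplaced and -0.66 on assembled sequences after 5-AzaC, a difference of 0.125. For TDCIPP it was -0.14 and -0.54, a difference of 0.40. With 1 peak for each unplaced sequence the unplaced median was -0.63 after 5-AzaC and -0.255 after TDCIPP. Assembled peaks were not weighted anew for that setting. Changes above 0 made up 28.1% of unplaced and 18.3% of weighted assembled peaks after 5-AzaC, and 42.4% and 28.6% after TDCIPP. The upper quartile differed more than the lower one after 5-AzaC, at 0.12 against -0.22, while the lower quartiles were -0.90 and -1.0. After TDCIPP both quartiles were higher on unplaced sequences, at -0.735 and 0.48 against -1.02 and 0.11. The strongest peak had no assembled peak of like level and width and was left out of both comparisons. No test was made of these differences, because peaks of the same libraries are not replicates of a condition. How reads that match several places were counted is not given in the sources used here, and its part in these differences was not tested.

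**Figure D2:**
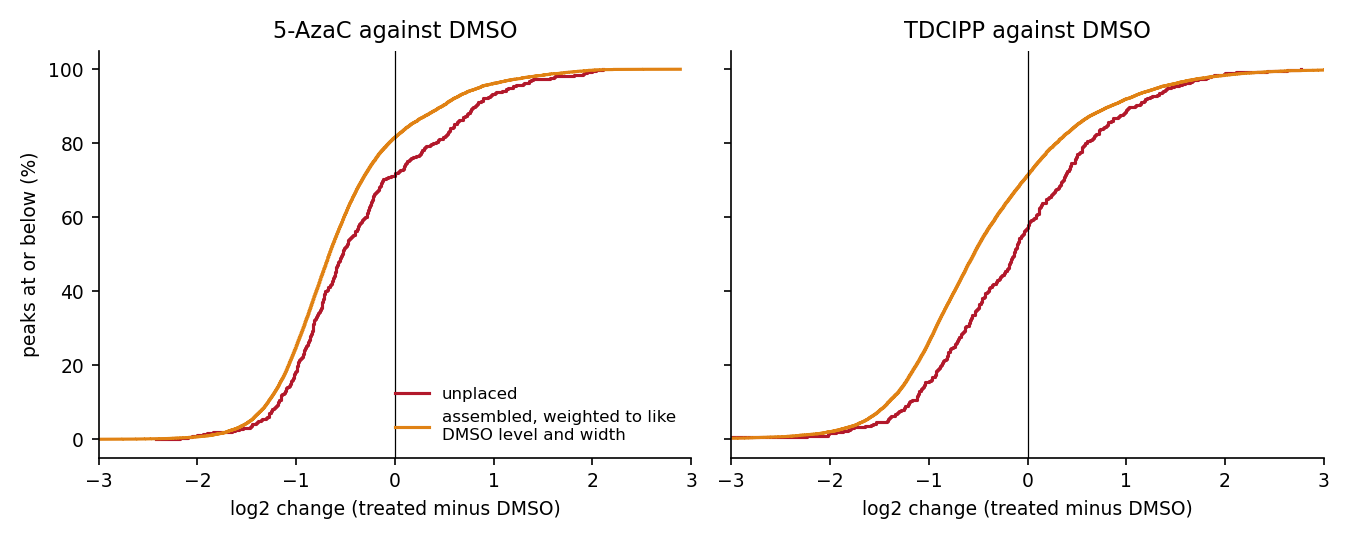
Share of peaks (%) at or below each log2 change after 5-AzaC (left) and TDCIPP (right), for unplaced peaks (red) and for assembled peaks weighted to like DMSO level and width (orange). The unplaced curve runs to the right of the assembled one over most of its length, with medians of -0.535 against -0.66 and of -0.14 against -0.54.

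After 5-AzaC, the unplaced median was above the assembled one in every range of peak strength, by little at DMSO levels of 3 to 5 and among the strongest peaks. At DMSO levels of 5 to 6, 13 of 61 unplaced peaks (21.3%) had a change above 0, against 56 of 2890 assembled peaks (1.94%), and the medians were -0.65 and -0.91. At 6 to 7, 8 of 25 unplaced peaks (32.0%) were above 0, against 7.50% of 560 assembled peaks, with medians of -0.72 and -0.95. At 7 and over, where assembled peaks also had mostly positive changes, the shares were 9 of 14 (64.3%) and 67 of 99 (67.7%), and the medians 0.50 and 0.48. At 3 to 4 the medians were -0.635 (122 unplaced peaks) and -0.69, and at 4 to 5 they were -0.755 (100 unplaced peaks) and -0.82. Weak peaks, with a DMSO level under 2, had medians above 0 in both classes, at 0.65 and 0.35. The DMSO level enters the change with a minus sign.

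In the TDCIPP table the unplaced median was the higher one in every range up to a level of 7. The medians at DMSO levels of 3 to 4 were -0.175 on unplaced and -0.56 on assembled sequences, at 4 to 5 they were -0.455 and -0.77, and at 5 to 6 they were -0.505 and -0.90. At 6 to 7 they were -0.41 (27 peaks) and -0.95, and at 7 and over 0.12 (13 peaks) and 0.12. Calls of lower signal made up a smaller share of unplaced than of assembled peaks at 4 to 5 (4.17% and 8.44%), at 5 to 6 (3 of 60, 5.00%, and 24.2%) and at 6 to 7 (4 of 27, 14.8%, and 41.4%). They made up a larger share at 3 to 4 (1 of 110, 0.909%, and 0.565%) and at 7 and over (4 of 13, 30.8%, and 22.1%).

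**Figure D3:**
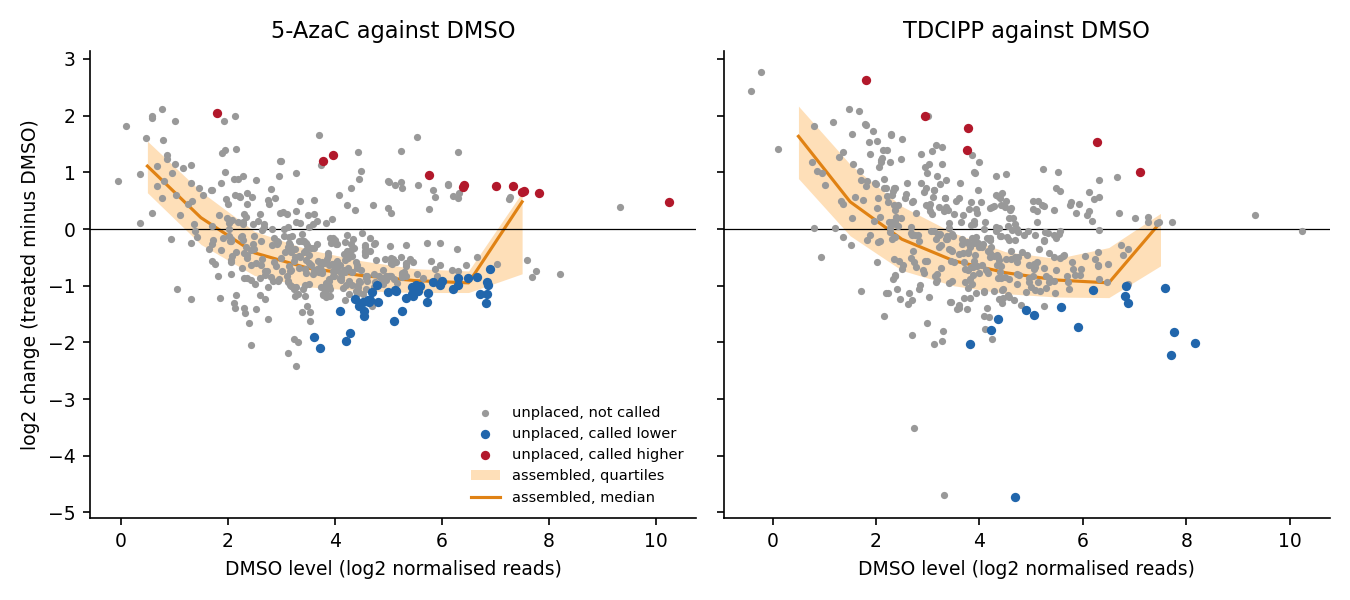
Log2 change of each unplaced peak (vertical axis) against its DMSO level in log2 normalised reads (horizontal axis), after 5-AzaC (left) and TDCIPP (right), with called peaks in blue (lower) and red (higher). The orange line and band give the median and quartiles of assembled peaks in bins 1 log2 unit wide, the last of which holds all assembled peaks of level 7 and over, where the assembled median also lies above 0.

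By the FDR of the authors' deposited table, with a threshold of 0.05, 44 unplaced peaks (9.34%) were lower and 12 (2.55%) higher after 5-AzaC than in DMSO. Over all peaks listed, 12.5% were lower and 0.301% higher. Among the 470 unplaced peaks with assembled peaks of like DMSO level and width, 9.36% were lower and 2.34% higher, against 15.0% and 1.06% of the weighted assembled peaks. The lower calls lay on 42 sequences, with changes from -2.10 to -0.71 and DMSO levels from 3.61 to 6.90. The higher calls lay on 8 sequences, with changes from 0.47 to 2.04, and 5 of the 12 lay on chrUn_KN149693v1. Without that sequence, 7 higher calls are left, and the shares of higher calls at like level and width were 1.30% on unplaced and 0.841% on assembled sequences. The DMSO levels of the 12 reached from 1.80 to 10.24, and 8 of the 12 were at 6 or more.

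The direction of calls depends on where no change is placed. In an approximate test of each change against the median of its table, with errors derived from the deposited p-values, 0 of 319 unplaced peaks were lower and 33 (10.3%) higher after 5-AzaC, at an adjusted p under 0.05. Before adjustment, 6 and 57 had a p under 0.05. Over the table this test called 0% lower and 1.22% higher. At like DMSO level and width it called 10.1% of unplaced and 4.45% of assembled peaks higher. Without chrUn_KN149693v1 and chrUn_KN149692v1 those shares were 5.67% and 3.32%. Of the 33, 9 lay on chrUn_KN149693v1 and 6 on chrUn_KN149692v1. For TDCIPP it called 3 unplaced peaks lower (1.06%) and 15 higher (5.30%) of 283, where the table gave 0.71% and 4.58%. At like DMSO level and width the higher shares after TDCIPP were 5.32% on unplaced and 5.38% on assembled sequences.

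The largest increase called after 5-AzaC was a 738 bp peak on chrUn_KN149993v1 from 16149 to 16887. Its levels were 3.84 after 5-AzaC and 1.80 in DMSO, a log2 change of 2.04 with a listed FDR of 0.0159 (the authors' deposited table). At DMSO levels under 2, 0 of 56 unplaced and 0 of 2292 assembled peaks were called lower after 5-AzaC. So weak a peak may have come within the authors' adjustment through its treated level, which was not tested. On chrUn_KN150351v1 from 47484 to 48097 the levels were 5.27 and 3.97 (change 1.30, FDR 0.0320 in the authors' deposited table). The other 3 of the 5 largest were on chrUn_KN150342v1 from 21078 to 21637 (change 1.20), chrUn_KN149692v1 from 28878 to 30138 (0.96) and chrUn_KN150031v1 from 597 to 4370 (0.77), with FDRs of 0.0345, 0.0213 and 0.0462 in the authors' deposited table. The first 3 of these were weak or middling in DMSO, and the called increases of peaks with a DMSO level of 6 or more were under 1. The strongest unplaced peak, on chrUn_KN150271v1, was itself called higher, with a change of 0.47 and a listed FDR of 0.0479 (the authors' deposited table).

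The most negative change called after 5-AzaC was on chrUn_KN150224v1 from 17032 to 17419, with levels of 1.63 after 5-AzaC and 3.72 in DMSO, a change of -2.10 and a listed FDR of 0.0189 (the authors' deposited table). A peak on chrUn_KN150698v1 from 13303 to 14602 had levels of 2.23 and 4.21 (change -1.98, FDR 0.0123 in the authors' deposited table). The following 3 lay on chrUn_KN150078v1 (change -1.90), chrUn_KN150336v1 (-1.84) and chrUn_KN149999v1 (-1.63), with FDRs of 0.0238, 0.0139 and 0.0124 in the authors' deposited table. All 5 fell by more than the table's median of -0.70, but none passed the approximate test against that median. That test called 0 of the 20013 peaks it covered lower after 5-AzaC, so this result does not set these 5 apart.

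After TDCIPP, 16 unplaced peaks (3.66%) were lower and 6 (1.37%) higher at the same threshold in the authors' deposited table. The shares over all peaks were 5.81% and 1.21%. Among the 436 unplaced peaks with assembled peaks of like DMSO level and width, 3.67% were lower and 1.38% higher, against 8.27% and 1.56% of the weighted assembled peaks. The higher share was near the background, while the lower share was under it. The lower calls had changes from -4.72 to -1.0 on 15 sequences, and the higher calls from 1.01 to 2.63 on 5 sequences.

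The largest TDCIPP decrease called was on chrUn_KN150173v1 from 36188 to 36953, where the level was -0.03 after TDCIPP and 4.69 in DMSO (change -4.72, FDR 0.00471 in the authors' deposited table). A level near 0 corresponds to about 1 normalised read. The decrease with the smallest FDR, 3.01e-06 in the authors' deposited table, was on chrUn_KN150127v1 from 24907 to 25748, with levels of 5.46 and 7.70 and a change of -2.23. Another peak of that sequence, from 144 to 2894, had levels of 6.16 and 8.17 (change -2.01, FDR 0.0104 in the authors' deposited table). These peaks were among the strongest unplaced ones in DMSO, as was that on chrUn_KZ116059v1 from 16613 to 17722, with levels of 5.93 and 7.76 (change -1.82, FDR 0.000206 in the authors' deposited table). A decrease on chrUn_KN150703v1 from 914 to 1909 was -2.02, with a listed FDR of 0.0392 (the authors' deposited table).

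The largest TDCIPP increase called was again on chrUn_KN149993v1, from 16134 to 16885, where the level was 4.43 after TDCIPP and 1.80 in DMSO (change 2.63, FDR 0.00807 in the authors' deposited table). Next came peaks on chrUn_KN150646v1 from 7555 to 10053 (change 1.99) and chrUn_KN150454v1 from 10617 to 11110 (1.79), with FDRs of 0.00998 and 0.0177 in the authors' deposited table. The DMSO level on chrUn_KN150646v1 was 2.94. At DMSO levels under 3, 0 unplaced and 0 assembled peaks were called lower after TDCIPP. Both peaks on chrUn_KN149803v1 were called higher. The one from 14774 to 15972 had levels of 7.81 and 6.28 (change 1.53, FDR 0.000207 in the authors' deposited table), and the one from 9472 to 10630 had levels of 8.10 and 7.10 (change 1.01, FDR 0.0301 in the authors' deposited table). On chrUn_KN149811v1 the change was 1.39, with a listed FDR of 0.0482 (the authors' deposited table).

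The DMSO libraries are shared by the comparisons, so their changes at a peak are not independent, and values are given side by side without a count of agreement. Of the unplaced peaks, 387 overlapped one of the other table by at least 1 bp, or 82.2% of those in the 5-AzaC table and 88.6% of those in the other. All 58 with identical coordinates had the same DMSO level in both tables. The peak on chrUn_KN150037v1 from 1108 to 2719 had levels of 5.89 after 5-AzaC, 5.57 after TDCIPP and 6.87 in DMSO, with changes of -0.98 and -1.30 and FDRs of 0.0106 and 0.0125 in the authors' deposited tables. On chrUn_KN150380v1 the changes were -1.31 and -1.19, on chrUn_KN150529v1 -1.0 and -1.38, on chrUn_KN149874v1 -0.93 and -1.0, and on chrUn_KN149932v1 -1.05 and -1.08, each called lower in both of the authors' deposited tables. The peak on chrUn_KN149993v1 described above was called higher in both. Its DMSO level was 1.80, and under 2 there were 0 lower calls on unplaced or assembled sequences in either table. It may have come within the adjustment only through its treated levels, which was not tested. Peaks called lower in both had DMSO levels of 6 to 7, apart from that on chrUn_KN150529v1 (5.60 in the 5-AzaC table). Of assembled peaks at 6 to 7, 69.8% were called lower after 5-AzaC and 41.4% after TDCIPP, with medians of -0.95 and -0.95. At 5 to 6 those shares were 48% and 24.2%. The share of all peaks called in both tables was not worked out. For the peaks on chrUn_KN149803v1 that were higher after TDCIPP, the 5-AzaC changes were -0.36 and -0.62, with FDRs of 0.291 and 0.0975 in the authors' deposited table. The TDCIPP change at chrUn_KN150454v1 was 1.79, and the 5-AzaC change there -0.59 (FDR 0.326 in the authors' deposited table). The 2 peaks of chrUn_KN150127v1 that fell after TDCIPP had 5-AzaC changes of -0.84 and -0.79, with FDRs of 0.238 and 0.276 in the authors' deposited table. Whether the treatments differ at these peaks was not tested.

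Among strong unplaced peaks, those with a DMSO level of 6 or more, changes after 5-AzaC fell into separate ranges. Of the 39, 22 peaks on 20 sequences lay between -1.31 and -0.36, and 17 peaks on 9 sequences lay between 0.39 and 1.36, with no peak in between. The edges of that gap are values of these 39 peaks, so its emptiness follows from how it was drawn. Few assembled peaks of that strength lay in it either, 12 of 659 (1.82%). In the lower range 12 peaks were called lower, and in the upper range 8 were called higher. At DMSO levels of 6 to 7, 48% of unplaced and 69.8% of assembled peaks were called lower, and 8% and 1.96% higher. At 7 and over, 0% and 27.3% were called lower, and 42.9% and 31.3% higher. The DMSO levels of the ranges overlapped, from 6.00 to 8.20 in the lower range and from 6.11 to 10.24 in the upper one. More of the upper range was at 7 or more, 9 of 17 peaks against 5 of 22. Peaks of the upper range were wider, with a median of 1917 bp against 1507 bp. chrUn_KN149693v1 held 8 of the 17 peaks in the upper range. Without it, changes above 0 made up 9 of 31 strong peaks (29.0%), and 3 of them were called higher. The median change after TDCIPP was 0.22 for the peaks of the upper range (from -0.04 to 0.87) and -0.775 for those of the lower range (from -2.23 to 1.53). The 5-AzaC change that set the ranges shares its DMSO libraries with the TDCIPP change, so these medians are not independent of the split. The level of 6 was chosen after the values were seen.

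**Figure D4:**
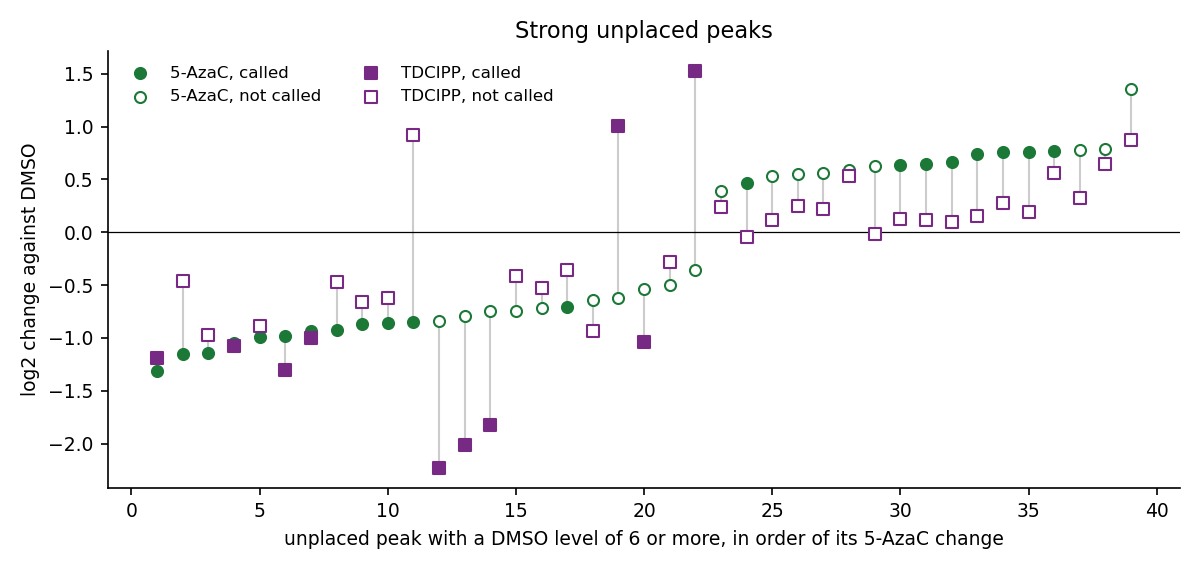
Log2 change against DMSO (vertical axis) of the 39 unplaced peaks with a DMSO level of 6 or more, in order of their 5-AzaC change (horizontal axis), after 5-AzaC (green circles) and TDCIPP (purple squares), filled where called. The 5-AzaC changes step from -0.36 to 0.39 with none in between, while the TDCIPP changes of the same peaks run from -2.23 to 1.53, and both share the DMSO libraries.

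Several peaks on the same unplaced sequence were common. In the table for 5-AzaC, 93 of 301 sequences held 2 or more peaks, and these carried 263 of the 471 peaks (55.8%). In that for TDCIPP, 87 of 282 sequences did so, with 242 peaks (55.4%). Sequences with 4 or more peaks numbered 19 and 16. Their 97 peaks in the 5-AzaC table had a median change of -0.24 with 44.3% above 0, against -0.595 and 23.1% for the 208 peaks that were alone on their sequence. Of the 43 such peaks above 0, 17 lay on chrUn_KN149693v1 and chrUn_KN149692v1 and 7 on chrUn_KN149691v1. Without the first 2 of these sequences the median was -0.49 over 79 peaks, with 26 above 0 (32.9%). In the TDCIPP table the medians were 0.11 for 84 peaks and -0.19 for 195 peaks, and -0.05 for the 66 left without those 2 sequences. Median DMSO levels were 4.01 and 3.54 in the 5-AzaC table, in the same order. The 97 peaks also spread further, with lower and upper deciles of DMSO level of 1.32 and 6.35, against 1.95 and 5.56. Assembled peaks had mostly positive changes after 5-AzaC at DMSO levels under 2 (67.3%) and at 7 and over (67.7%). The groups were not weighted to like DMSO level or width in either table, so the part of peak strength in these differences was not tested.

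The sequence with the most peaks was chrUn_KN149693v1, with 10 in the 5-AzaC table over 48789 bp from the first peak's start to the last peak's end. Peaks covered 29.5% of that span, with a median gap of 2266 bp. The first 9 of them had levels of 6.43 to 8.46 after 5-AzaC and 5.87 to 7.82 in DMSO, and changes of 0.55 to 0.78 in the authors' deposited table. Of these 5 were called higher, with the smallest FDR, 0.0231 in the authors' deposited table, at the peak from 19378 to 21258 (levels 7.77 and 7.01). Of assembled peaks with DMSO levels of 7 and over, 31.3% were called higher, with a median change of 0.48. At 6 to 7, 1.96% of them were, with a median of -0.95. The last peak, from 48223 to 49054, was weaker and went the other way, with levels of 3.58 and 4.69, a change of -1.11 and a listed FDR of 0.0487 (the authors' deposited table). No other unplaced sequence held calls of both directions in that table. After TDCIPP its 11 peaks had changes from -0.02 to 0.44, and none was called, with FDRs from 0.385 to 0.952 in the authors' deposited table.

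On chrUn_KN149692v1 all 8 peaks of the 5-AzaC table had changes above 0, from 0.37 to 0.96, at levels of 5.14 to 7.78 after 5-AzaC and 4.72 to 7.25 in DMSO. One was called, and the next smallest FDR was 0.0642 in the authors' deposited table. Its 7 peaks in the TDCIPP table had changes of -0.03 to 0.49, and none was called. chrUn_KN149691v1 held weak peaks, 7 in the 5-AzaC table with levels of 1.83 to 3.85 after 5-AzaC and 0.77 to 3.50 in DMSO. All of their changes were above 0, from 0.25 to 2.11, but 2 of the 7 were within the authors' adjustment, with FDRs of 0.538 and 0.717 in the authors' deposited table. After TDCIPP its 6 peaks had changes of 0.77 to 2.08, and none was called, but 1 of the 6 was within the authors' adjustment. The median DMSO levels of the sequence were 1.32 and 1.61. Assembled peaks under 2 were also mostly above 0, 67.3% after 5-AzaC and 73.7% after TDCIPP, with medians of 0.35 and 0.63.

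The next sequences by number of peaks had changes of both signs or below 0. chrUn_KN150342v1 had 7 peaks with changes of -0.74 to 1.20 after 5-AzaC. Its 3 peaks from 18865 to 29322 were at 0.83, 1.20 and 0.73, and the middle one was called. After TDCIPP its 6 peaks ranged from -3.51 to 0.44 without a call, and 4 of the 6 were within the authors' adjustment. The peaks at -3.51 and 0.44 were outside it, and the former stood at a level of -0.78 after TDCIPP. On chrUn_KN149790v1 all 6 peaks had changes below 0 in both tables, from -2.00 to -0.24 after 5-AzaC and from -4.69 to -0.06 after TDCIPP, and none was called. Its median change was -0.37 after 5-AzaC, above the table's -0.70, and -0.76 after TDCIPP, below the table's -0.53. The peak with the lowest change, from 73780 to 74359, stood at -1.38 after TDCIPP and at 3.31 in DMSO, with a p-value of 0.000486 but an FDR listed as 1 in the authors' deposited table. That TDCIPP level, 0.384 normalised reads on the linear scale, was the lowest listed for any peak of the table. The lowest levels on assembled and on alternate-locus sequences were also -1.38. The size of the change of -4.69 may thus rest on a floor, which was not tested. With 5 peaks at most, chrUn_KN147652v2 was tied with 4 other sequences and is given as the first by name. It had 5 peaks in each table, spread over 209061 bp in the 5-AzaC table. Their changes were -1.0 to 1.65 after 5-AzaC and -0.96 to 1.81 after TDCIPP, and none was called. Within the authors' adjustment were 4 of the 5 with 5-AzaC and 3 of the 5 with TDCIPP. The tied sequences were chrUn_KN150170v1, chrUn_KN150335v1, chrUn_KN150487v1 and chrUn_KN150616v1. On chrUn_KN150616v1 all 5 changes after 5-AzaC were below 0, from -1.27 to -0.84, with 1 called lower, and the 5 after TDCIPP ran from -0.54 to 0.37 with none called.

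**Figure D5:**
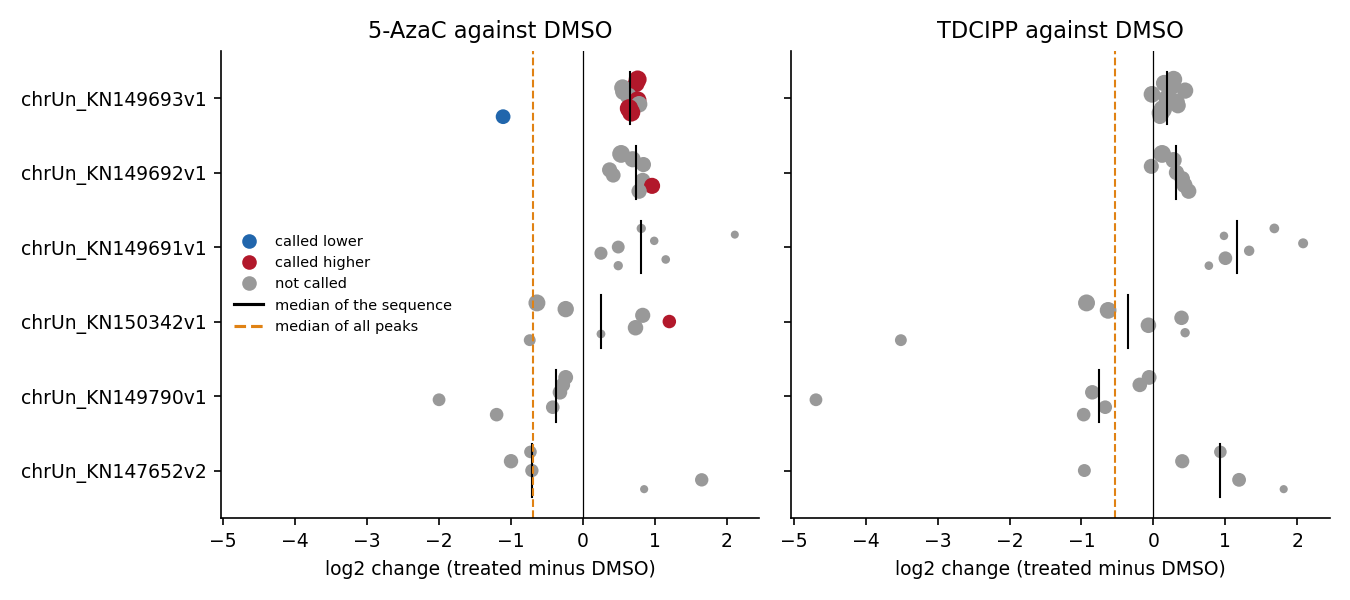
Log2 change against DMSO (horizontal axis) of every peak on 6 unplaced sequences with the most peaks (rows, the last tied with 4 others and taken by name), after 5-AzaC (left) and TDCIPP (right), in order of position from top to bottom within a sequence, with larger points for higher DMSO levels, called peaks in blue (lower) or red (higher), a black bar at the median of the sequence and a dashed line at that of all peaks. Peaks of chrUn_KN149693v1 cluster between 0.55 and 0.78 after 5-AzaC apart from 1 at -1.11, and between -0.02 and 0.44 after TDCIPP.

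After 5-AzaC, all changes were above 0 on 7 of the 93 sequences with several peaks and below 0 on 43, and 43 were mixed. After TDCIPP the counts were 16, 35 and 36 of 87. The intraclass correlation of changes within sequences was 0.264 over 263 peaks after 5-AzaC and 0.261 over 242 peaks after TDCIPP, given as a description. Between neighbouring peaks of a sequence, the median absolute difference in change was 0.48 after 5-AzaC (170 pairs, median gap 9022 bp). For assembled neighbours at like gaps it was 0.47. Pearson's r between neighbours was 0.382 on unplaced and 0.193 on assembled sequences, and 0.324 on unplaced ones without chrUn_KN149693v1 and chrUn_KN149692v1. After TDCIPP it was 0.249 and 0.247. Neighbours had changes of the same sign in 70.0% of unplaced pairs after 5-AzaC, against 80.1% of assembled pairs at like gaps, and in 66.5% and 68.7% after TDCIPP. Such shares rise where more changes lie on one side of 0. Changes above 0 made up 28.2% of unplaced and 14.2% of assembled peaks after 5-AzaC, and 42.3% and 26.5% after TDCIPP. The same-sign shares therefore do not say in which class neighbours were more alike. Neighbours share libraries, and these values carry no test.

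Some unplaced peaks lay at the very start of their sequence. A start under 500 bp was listed for 39 peaks (8.28%) with 5-AzaC and for 38 (8.70%) with TDCIPP. Those 39 had a higher median DMSO level, 4.60 against 3.70 for the other 432, and about the same median change, -0.55 against -0.53. Their upper quartile of change was higher, at 0.56 against 0.10, and 38.5% against 27.3% of changes were above 0. In the TDCIPP table the median changes were -0.145 and -0.14, with 39.5% and 42.6% above 0. The last peak of a sequence ended at 13603 bp at the median and at 312696 bp at most in the 5-AzaC table, on chrUn_KN149696v2, which is a lower bound on the length of these sequences.

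Peaks without a counterpart in the other table were weak. The 84 found in the 5-AzaC table alone had a median DMSO level of 2.07 and a median change of -0.115, with 1 called higher. The 50 found in the TDCIPP table alone had a median DMSO level of 2.235 and a median change of 0.56, with 1 called higher. Matched peaks had median changes of -0.6 after 5-AzaC and -0.21 after TDCIPP. Because the DMSO libraries are shared, a peak listed in 1 table alone may have been listed through its treated libraries. Its low DMSO level and its change are then not independent of that listing, which was not tested.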

How the data were processed

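H2A.Z CUT&Tag libraries of zebrafish embryos were compared by group. The submitters' processing notes name Bowtie2, Picard, MACS2, deepTools and DiffBind and the build GRCz11, with no role or order. The authors deposited, per the file headers, log2 levels and a log2 change for each consensus peak, and a p-value and FDR. The scaling, the test and the handling of reads with several matches are not given in the sources used here. Log2 changes equal the difference of the deposited group levels within 0.01. Depth per library is unknown. Coordinates are as listed, and whether starts count from 0 or 1 is not stated.

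Calls use the deposited FDR under 0.05, since tables by group allow no count model. Assembled peaks were weighted to the unplaced ones over bins of DMSO level (1 log2 unit) and width (edges at 500, 1000 and 2000 bp). Tables were matched one to one by the largest overlap of at least 1 bp. The approximate test against the table median rests on a standard error worked back from each deposited change and p-value under a normal distribution. Where the change was below 0.2 or p reached 0.9, the median error of peaks of like level (50 bins) was taken instead. It is adjusted by Benjamini-Hochberg over peaks with an FDR under 1. The scripts (Python 3.11.15, numpy 2.4.6, pandas 2.3.3, scipy 1.17.1) were tried on simulated data. For the approximate test, simulated peaks all had the same error and p-values from a normal distribution, which the deposited ones need not have. How well that test holds for the deposited values was not tested. Named were the 5 largest positive and negative changes among calls, the 5 strongest peaks in DMSO, peaks called in both tables and the 6 sequences with the most peaks in either table, ties in order of name. The peaks on chrUn_KN149803v1 beyond that rule were chosen after their values were seen. The class of peaks and the choices were made with earlier results of these data known.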

Additional observations from a re-analysis of the deposited data

How the results depend on the processing

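No paired analysis was possible because levels are given by group and not by sample. No replicate could be left out either, and sequence features were not analysed here because no genome of the build was used. The approximate test, the removal of sequences with 4 or more peaks or of named sequences, and the merging of peaks were chosen after seeing the data. Calls on unplaced sequences after 5-AzaC, 56 in the main comparison, were 4 at an FDR under 0.01 (4 lower, 0 higher), 114 at 0.1 (84 lower, 30 higher) and 35 with a minimum change of 1 (32 and 3). A Bonferroni adjustment of the deposited p-values over all peaks left 0, where 101 unplaced peaks were lower and 40 higher at an unadjusted p under 0.05. The approximate test against the table median gave 33 (0 lower, 33 higher, with 6 lower at an unadjusted p under 0.05). After TDCIPP, 22 calls became 7 at 0.01 (4 and 3), 41 at 0.1 (31 and 10) and 3 under Bonferroni (2 and 1). The approximate test gave 18, 3 lower and 15 higher. The median change after 5-AzaC was -0.64 above the median level of the table and -0.63 with 1 peak for each sequence, with a mean of -0.34. After TDCIPP it was -0.26 over peaks with an FDR under 1, -0.27 above the median level and -0.255 with 1 peak for each sequence. The difference from assembled peaks was 0.11 to 0.15 after 5-AzaC and 0.38 to 0.42 after TDCIPP over the alternatives run. The alternatives for this difference did not include 1 peak for each sequence. Of 44 alternative values, 31 moved by no more than 1.5 times for a count or 0.1 for a log2 value, and 13 moved further. The cause of those moves was not tested. The limit of 0.1 is nearly as large as the 5-AzaC difference of 0.125, so the tally cannot say whether that difference is stable.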
